A study of Rattus norvegicus with 8 samples.

Results

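A set of 4 genes linked to the handling of lipid and cell debris, Apoe, Clu, Spp1 and Gpnmb, were followed in rat spinal cord after a distant injury. They were taken by Ensembl identifier (ENSRNOG00000018454 for Apoe, ENSRNOG00000016460 for Clu, ENSRNOG00000043451 for Spp1 and ENSRNOG00000008816 for Gpnmb), and all 4 were among the 32883 identifiers of the deposited table. The cords came from outbred Sprague Dawley rats. The sample labels place the tissue in the upper cord, and the series title in the upper lumbar cord. The injured group (4 libraries) was taken 4 days after hemisection at T9, in which one side of the thoracic cord is severed, and the uninjured group (4 libraries) came from rats without spinal cord injury. The labels name no genotype, drug, sex or age and do not say whether uninjured rats had a sham operation or whether each library was 1 animal, so p-values measure only the spread between these libraries. The question addressed is what a distant lesion does to RNA in cord tissue that was not itself cut. Libraries were made by CEL-Seq2, in which transcripts are read from their 3' ends and carry random tags (unique molecular identifiers, UMIs), and the values are UMIs counted per gene.

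Damaged myelin and dying cells leave lipid-rich debris in the cord, which microglia and macrophages take up and break down in lysosomes. Apoe (apolipoprotein E) carries cholesterol and other lipids between cells and is made in the central nervous system mainly by astrocytes, and by microglia in damaged tissue. Clu (clusterin, also called apolipoprotein J) is a secreted chaperone that binds lipids and misfolded proteins and is made largely by astrocytes. Spp1 (osteopontin) is a secreted phosphoprotein that binds integrins and CD44 and is known from reactive microglia and macrophages as well as from some neurons of the rodent cord. Gpnmb is a membrane glycoprotein of the endosomes and lysosomes, known from lipid-laden phagocytes and from pigment cells.

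Gpnmb rose after injury and was the only one of the 4 genes to pass the test. Clu was higher in every injured library than in every uninjured library, by a smaller amount that did not pass. Scaled to library totals, Spp1 and Apoe overlapped between the groups, with Spp1 somewhat higher and Apoe somewhat lower on average in injured cord. Across all genes, 2.28% of the 3073 tested were called higher (quasi-likelihood test of edgeR, p adjusted by Benjamini-Hochberg to below 0.05). Groups separated with every injured library on top for 7.52% of tested genes, and for 2 of the 4 described here, Clu and Gpnmb.

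Because Gpnmb carried the called change, its promoter is shown, with those of Apoe and Spp1, whose changes did not pass, for comparison. Sequences are RefSeq windows of build GRCr8, from 250 bases before to 50 bases after an annotated start, and 3 of the 4 genes had at least 1 window. Capitals mark matches, on both strands, to TGANTCA (the AP-1 motif), CATGTG (the core of the M-box bound by MITF, a factor known to regulate GPNMB in human pigment cells) or CACGTG (the core of the lysosomal CLEAR element). The Gpnmb window lies at chr4:79340878-79341177, plus strand, the Spp1 window at chr14:5619755-5620054, minus strand and the Apoe window, the most upstream of 3, at chr1:88485767-88486066, minus strand.
Gpnmb: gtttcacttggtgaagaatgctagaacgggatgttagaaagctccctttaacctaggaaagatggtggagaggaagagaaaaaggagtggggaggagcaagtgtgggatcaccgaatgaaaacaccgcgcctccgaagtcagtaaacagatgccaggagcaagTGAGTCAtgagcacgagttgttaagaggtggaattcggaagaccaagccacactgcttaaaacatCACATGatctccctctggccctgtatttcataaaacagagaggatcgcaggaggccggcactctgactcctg
Spp1: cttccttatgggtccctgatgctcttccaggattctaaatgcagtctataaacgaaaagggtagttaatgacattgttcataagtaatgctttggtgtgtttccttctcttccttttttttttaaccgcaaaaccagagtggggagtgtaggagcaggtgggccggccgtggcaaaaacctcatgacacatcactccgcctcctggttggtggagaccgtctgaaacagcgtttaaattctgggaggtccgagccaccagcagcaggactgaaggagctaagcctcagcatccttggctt
Apoe: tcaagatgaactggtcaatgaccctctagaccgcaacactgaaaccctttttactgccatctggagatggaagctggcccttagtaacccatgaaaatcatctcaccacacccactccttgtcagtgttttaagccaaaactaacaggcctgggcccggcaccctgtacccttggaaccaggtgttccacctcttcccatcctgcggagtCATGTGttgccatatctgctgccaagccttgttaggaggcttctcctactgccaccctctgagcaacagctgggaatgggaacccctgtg

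The Gpnmb window held 1 AP-1 match, TGAGTCA, whose first base was at position -87 from the start, and 1 M-box core, printed as CACATG because it lies on the other strand, at position -22. The most upstream Apoe window held 1 M-box core at position -40. The other 2 Apoe windows and the Spp1 window held 0 matches to any of the 3 motifs. Of all 33469 windows of the same length, 7.33% held the AP-1 motif, 14.0% the M-box core and 6.42% the CLEAR core. The matches are letters in a window and were not tied to the RNA values.

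Gpnmb had 39, 40, 59 and 59 UMIs in injured libraries 1 to 4, against 12, 7, 8 and 11 UMIs in uninjured libraries 1 to 4. Scaled to counts per 1000000 UMIs of the library total (CPM), these were 142.9, 124.9, 232.6 and 302.4 CPM in injured libraries 1 to 4, against 54.3, 62.4, 59.5 and 80.9 CPM in uninjured libraries 1 to 4. The groups did not overlap, and within the injured group libraries 3 and 4 were higher than libraries 1 and 2. The mean was 200.7 ± 82.5 CPM in injured cord, against 64.2 ± 11.6 CPM in uninjured cord (SD, n = 4 each). The log2 fold change was 1.52 (SE 0.36, adjusted p = 0.0324 by edgeR), or 2.86-fold with a 95% interval from 1.68 to 4.88. Its log2 fold change ranked 54 of 3073 from the highest, while its mean level ranked 1269. In a bulk sample, more cells of a type and more RNA per cell cannot be told apart.

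Gpnmb also differed between an injured and an uninjured library of like depth. Injured library 4, with a total of 195113 UMIs, held 59 UMIs of Gpnmb, while the deeper uninjured library 1, with 221177, held 12. In CPM these libraries were also the highest and the lowest of all, at 302.4 and 54.3, so their contrast is the widest available. Within libraries of the same number, injured over uninjured CPM was 2.63, 2.0, 3.91 and 3.74 for numbers 1 to 4. All 4 ratios were above 1, which the lack of overlap between groups already fixes, and the smaller ones were those of numbers 1 and 2. With the shared number as a block, the log2 fold change was 1.47 (SE 0.25, edgeR adjusted p = 0.000547), where 6.77% of tested genes were called higher. With library totals as the only scaling it was 1.63 (SE 0.35, edgeR adjusted p = 0.00983), where 3.42% were called higher. Over all tested genes the median log2 fold change was 0.09 with that scaling, against -0.03 with TMM (trimmed mean of M-values, which sets the scaling from the bulk of genes), and relative to these medians Gpnmb stood at 1.54 and 1.55.

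The Gpnmb call rested on few UMIs and few libraries. Exact Poisson 95% intervals, which cover counting error only, ran from 89.2 to 170.1 CPM for injured library 2, the lowest of its group, and from 40.4 to 144.7 CPM for uninjured library 4, the highest of its group, so the nearest libraries were not separated by counting alone. Among injured libraries the coefficient of variation was 41.1%, against 14.5% expected from counting, and among uninjured libraries it was 18.0%, against 33.4%. Leaving out injured library 3 or uninjured library 1, 2 or 3 ended the call in the fit without the block, with log2 fold changes of 1.42, 1.35, 1.49 and 1.5 and edgeR adjusted p of 0.0867, 0.134, 0.103 and 0.0977.

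**Figure D1:**
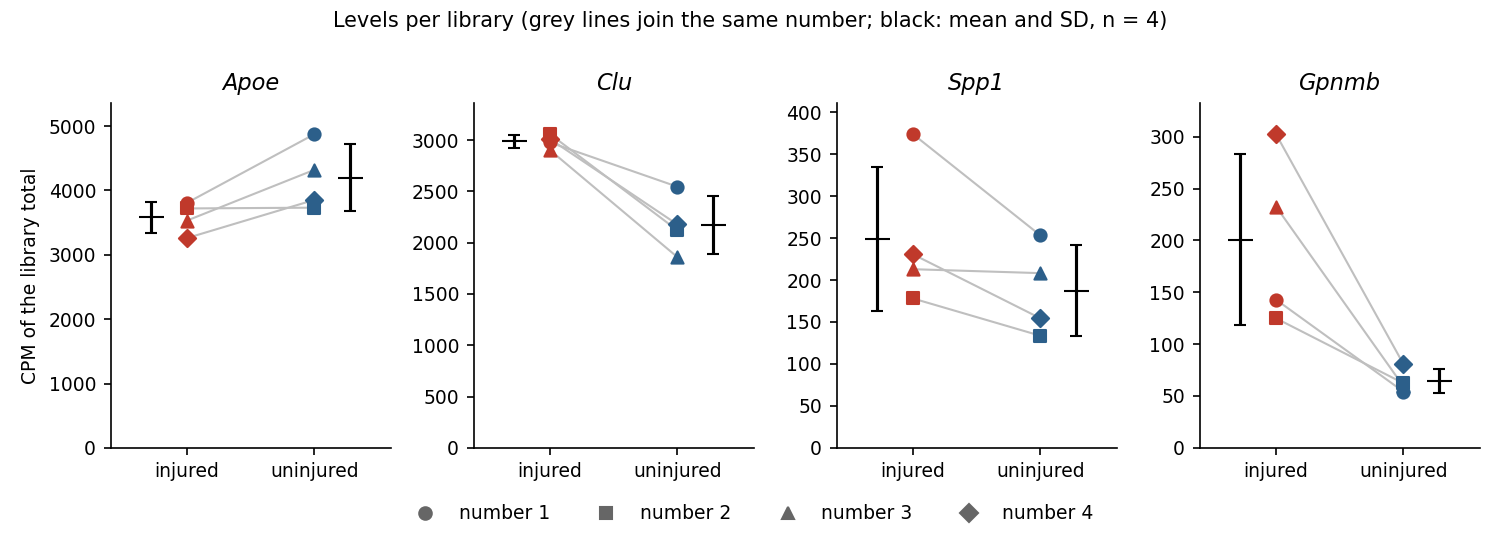
CPM of the library total for each of the 4 genes (one panel each, axes from 0), injured left of uninjured, with 1 marker shape per library number, grey lines joining the same number and black bars for mean ± SD (n = 4). Gpnmb and Clu separate the groups, at 200.7 against 64.2 CPM and 2986 against 2175 CPM on average, while Spp1 and Apoe overlap.

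Clu was among the most abundant genes, ranked 32 of 3073 by mean level. It had 812, 979, 736 and 587 UMIs in injured libraries 1 to 4, against 563, 238, 250 and 296 UMIs in uninjured libraries 1 to 4. Scaled to library totals, these were 2976, 3057, 2901 and 3009 CPM in injured libraries 1 to 4, against 2545, 2120, 1859 and 2177 CPM in uninjured libraries 1 to 4. The injured libraries lay close together, all above the uninjured ones, of which library 1 was the highest. On this scale the coefficient of variation of injured libraries was 2.19%, under the 3.64% expected from counting. That of uninjured libraries was 13.0%, against 5.64%. The TMM factors of the test were 1.1029, 1.1098, 1.0292 and 0.9906 for injured libraries 1 to 4. The close spread is thus shown for library totals only, and the spread with TMM was not computed.

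On average Clu was at 2986 ± 65.5 CPM in injured cord, against 2175 ± 283 CPM in uninjured cord (SD, n = 4 each). With TMM and no block, the log2 fold change was 0.33 (SE 0.18, edgeR adjusted p = 0.45), or 1.26-fold with a 95% interval from 0.959 to 1.65. A change of more than 1.65-fold lies outside that interval. With library totals as the only scaling, the log2 fold change was 0.46 (SE 0.19, edgeR adjusted p = 0.263), or 1.37-fold. The 95% interval of that fit, from 1.04 to 1.81-fold, left out no change and reached above 1.65-fold. Injured over uninjured CPM was 1.17, 1.44, 1.56 and 1.38 within numbers 1 to 4. All were above 1, which the lack of overlap between groups already fixes. With TMM, the block left Clu outside the threshold (log2 fold change 0.33, edgeR adjusted p = 0.0817), although its 95% interval, from 1.06 to 1.5-fold, left out no change. Clu passed under 2 of 21 alternative settings, the block with library totals (log2 fold change 0.46, edgeR adjusted p = 0.0154, 9.24% of tested genes called higher) and the block on counts corrected for tag collisions (0.43, edgeR adjusted p = 0.0174, 6.81% called higher). In RefSeq GRCr8 the Clu gene overlaps Scara3 and the pseudogene Ppp2r1a-ps1. Whether counting used strand is not stated, so reads of these genes may not be fully told apart from those of Clu.

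Apoe, the most abundant of the 4, ranked 23 of 3073 by mean level and did not pass the test. It had 1039, 1191, 896 and 636 UMIs in injured libraries 1 to 4, against 1078, 419, 581 and 524 UMIs in uninjured libraries 1 to 4. These were 3808, 3720, 3532 and 3260 CPM in injured libraries 1 to 4, against 4874, 3732, 4320 and 3853 CPM in uninjured libraries 1 to 4. On this scale the groups overlapped through uninjured library 2, which lay below injured library 1, and uninjured library 1 was the highest of all 8. The test scaled by TMM instead, with factors of 1.1029 for injured library 1 and 0.9588 for uninjured library 2. These factors lower the first relative to the second, so the overlap is shown for library totals only.

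Apoe averaged 3580 ± 242 CPM in injured cord, against 4195 ± 519 CPM in uninjured cord (SD, n = 4 each). The log2 fold change was -0.36 (SE 0.19, edgeR adjusted p = 0.401), or 0.779-fold with a 95% interval from 0.593 to 1.02. With the shared number as a block it was -0.36 (SE 0.12, edgeR adjusted p = 0.0622), still outside the threshold. The 95% interval of that fit, from 0.657 to 0.93-fold, left out no change. With library totals as the only scaling and no block, the log2 fold change was -0.23 (SE 0.19, edgeR adjusted p = 0.667). Injured over uninjured CPM was 0.781, 0.997, 0.818 and 0.846 within numbers 1 to 4. On library totals, number 2 was thus nearly level and the other 3 were lower. The TMM factors of number 2, 1.1098 for the injured and 0.9588 for the uninjured library, would lower its ratio. Without the block, a rise of Apoe by more than 1.02-fold lay outside the interval with TMM, and by more than 1.12-fold with library totals.

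None of the 4 genes came near the number of different 6-base tags (4 to the power of 6), which would limit a gene's count if tags had that length, which no source used here states. Over all genes of the table, the highest count of a library was 3727 to 4047 UMIs in injured and 3795 to 4042 UMIs in uninjured libraries, or 91.0% to 98.8% and 92.7% to 98.7% of that number, although library totals differed. The highest Apoe count, 1191 in injured library 2, was 29.1% of that number, the highest Clu count, 979 in the same library, was 23.9%, and the highest counts of Spp1 and Gpnmb were 2.49% and 1.44%. Under such a limit, correcting for tags that collide would raise Apoe by 8.67% to 18.2% in injured and by 5.49% to 16.0% in uninjured libraries. After that correction the log2 fold change of Apoe was -0.29 (edgeR adjusted p = 0.593) and that of Clu 0.43 (edgeR adjusted p = 0.324). Of the 22 genes with a higher mean level than Apoe, 20 had a log2 fold change below 0, with a median of -0.53, against 53.5% of all tested genes and a median of -0.03. The part of this abundance pattern in the Apoe value was not tested.

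**Figure D2:**
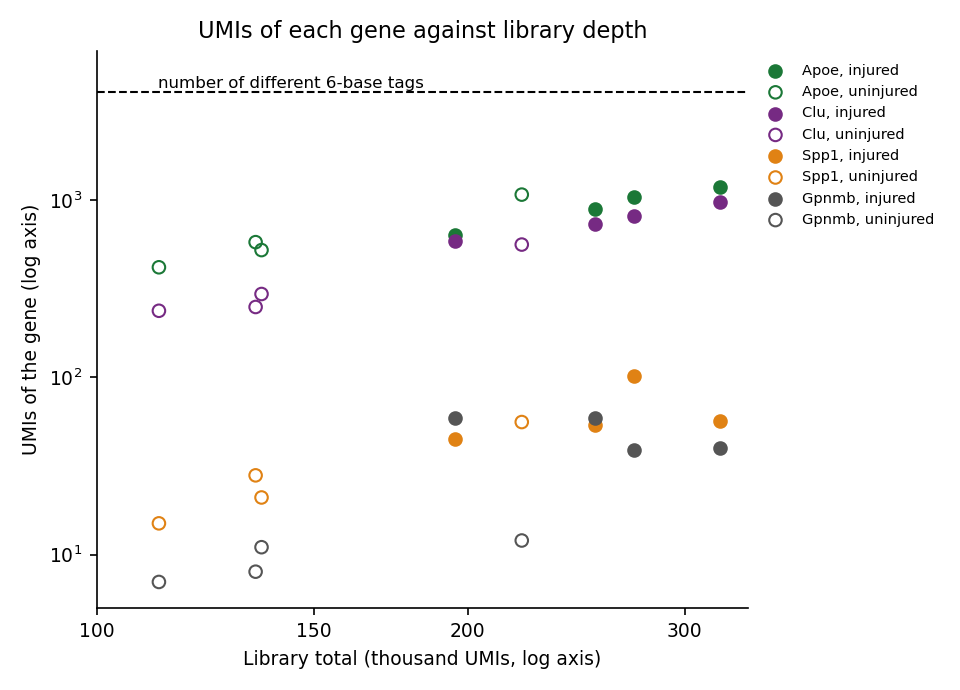
UMIs of each gene against the library total (both axes logarithmic, filled markers injured, open markers uninjured), with a dashed line at the number of different 6-base tags. The highest count of the 4 genes is 1191 UMIs, for Apoe, and Gpnmb is higher in all injured than in all uninjured libraries although one uninjured library is deeper than one injured library.

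The ratio of Clu to Apoe UMIs within a library, which needs no scaling, separated the groups. Clu alone also did so and Apoe was lower on average, so the ratio largely restates those values. The share of other gene pairs whose ratio separates the groups was not counted. The UMIs of Clu were 78.2%, 82.2%, 82.1% and 92.3% of those of Apoe in injured libraries 1 to 4, against 52.2%, 56.8%, 43.0% and 56.5% in uninjured libraries 1 to 4. The ranges did not overlap, and the mean was 83.7% ± 6.03 in injured cord, against 52.1% ± 6.44 in uninjured cord (SD, n = 4 each). After the correction for tag collisions the share was between 75.5% and 91.7% in injured and between 41.2% and 55.5% in uninjured libraries. The difference between the changes of Clu and Apoe was not tested. Without the block their 95% intervals in log2, from -0.06 to 0.72 for Clu and from -0.75 to 0.04 for Apoe, overlap. With the block they ran from 0.08 to 0.58 for Clu and from -0.61 to -0.11 for Apoe, without overlap. Gpnmb UMIs were 5.74% ± 2.76 of Apoe UMIs in injured cord, against 1.56% ± 0.424 in uninjured cord (SD, n = 4 each). This ratio did not overlap between groups, and Gpnmb alone did not either. Spp1 UMIs were 4.79% to 9.82% of Apoe UMIs in injured cord, against 3.58% to 5.19% in uninjured cord, with overlap.

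Spp1 was the most variable of the genes whose groups overlapped. It had 102, 57, 54 and 45 UMIs in injured libraries 1 to 4, against 56, 15, 28 and 21 UMIs in uninjured libraries 1 to 4. These were 373.8, 178.0, 212.9 and 230.6 CPM in injured libraries 1 to 4, against 253.2, 133.6, 208.2 and 154.4 CPM in uninjured libraries 1 to 4. Library 1 was the highest and library 2 the lowest in each group, and uninjured library 1 lay above injured libraries 2, 3 and 4.

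The mean Spp1 level was 248.8 ± 86.1 CPM in injured cord, against 187.4 ± 54.0 CPM in uninjured cord (SD, n = 4 each), and its log2 fold change was 0.26 (SE 0.28, adjusted p = 0.738 by edgeR). The 95% interval of the fold, from 0.797 to 1.80, holds both no change and the size of the Clu difference. The coefficient of variation of Spp1 was 34.6% in injured libraries, against 12.6% expected from counting, and 28.8% in uninjured libraries, against 18.9%. Injured over uninjured CPM was 1.48, 1.33, 1.02 and 1.49 within numbers 1 to 4. Without injured library 1 the log2 fold change was 0.02 and without uninjured library 2 it was 0.12. Spp1 passed in 0 of 21 alternative settings of edgeR and DESeq2, with an unadjusted p of 0.363 in the fit without the block and 0.151 with it. Without the block, the 95% interval of Gpnmb, in log2, from 0.75 to 2.29, and that of Spp1, from -0.33 to 0.85, overlap. With the block they ran from 0.95 to 2.0 for Gpnmb and from -0.11 to 0.68 for Spp1, without overlap. The difference between the changes of Gpnmb and Spp1 was not tested. Within libraries, Gpnmb UMIs were 38.2%, 70.2%, 109% and 131% of Spp1 UMIs in injured libraries 1 to 4, against 21.4%, 46.7%, 28.6% and 52.4% in uninjured libraries 1 to 4, with injured library 1 inside the uninjured range.

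**Figure D3:**
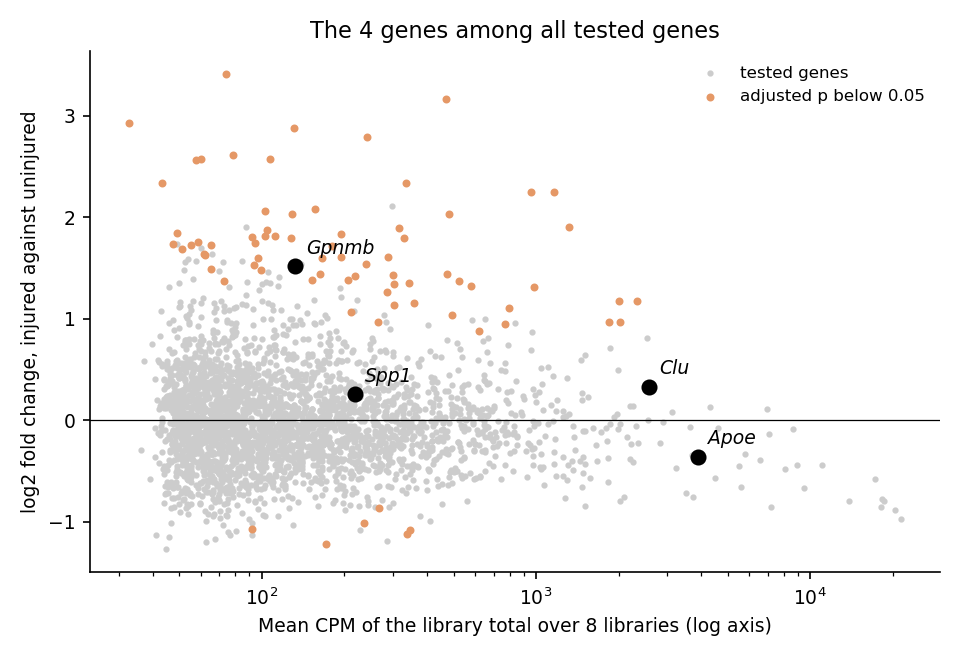
Log2 fold change of injured against uninjured cord (vertical) by mean CPM over 8 libraries (horizontal, logarithmic) for all 3073 tested genes in grey, those with an adjusted p below 0.05 in orange and the 4 genes in black. Gpnmb, at 1.52, lies among the called genes, while Clu at 0.33, Spp1 at 0.26 and Apoe at -0.36 lie within the grey cloud, Apoe among abundant genes that are mostly below 0.

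The genes whose levels were most like those of the 4 were taken by Pearson's r of log2 CPM over the 8 libraries, which share the difference between groups and the depth of each library, so r is a description. For Gpnmb these were ENSRNOG00000011054 (r = 0.983), with mean levels of 235 CPM after injury and 105 CPM without it on average, and ENSRNOG00000031058 (r = 0.958), with mean levels of 149 CPM after injury and 44.6 CPM without it. For Apoe they were ENSRNOG00000000774 (r = 0.960), with mean levels of 268 CPM after injury and 403 CPM without it, and ENSRNOG00000024923 (r = 0.935), with mean levels of 236 CPM after injury and 455 CPM without it. No file given here names these identifiers. The 3 genes most like Clu had r from 0.942 to 0.953, and the 3 most like Spp1 from 0.859 to 0.870.

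**Figure D4:**
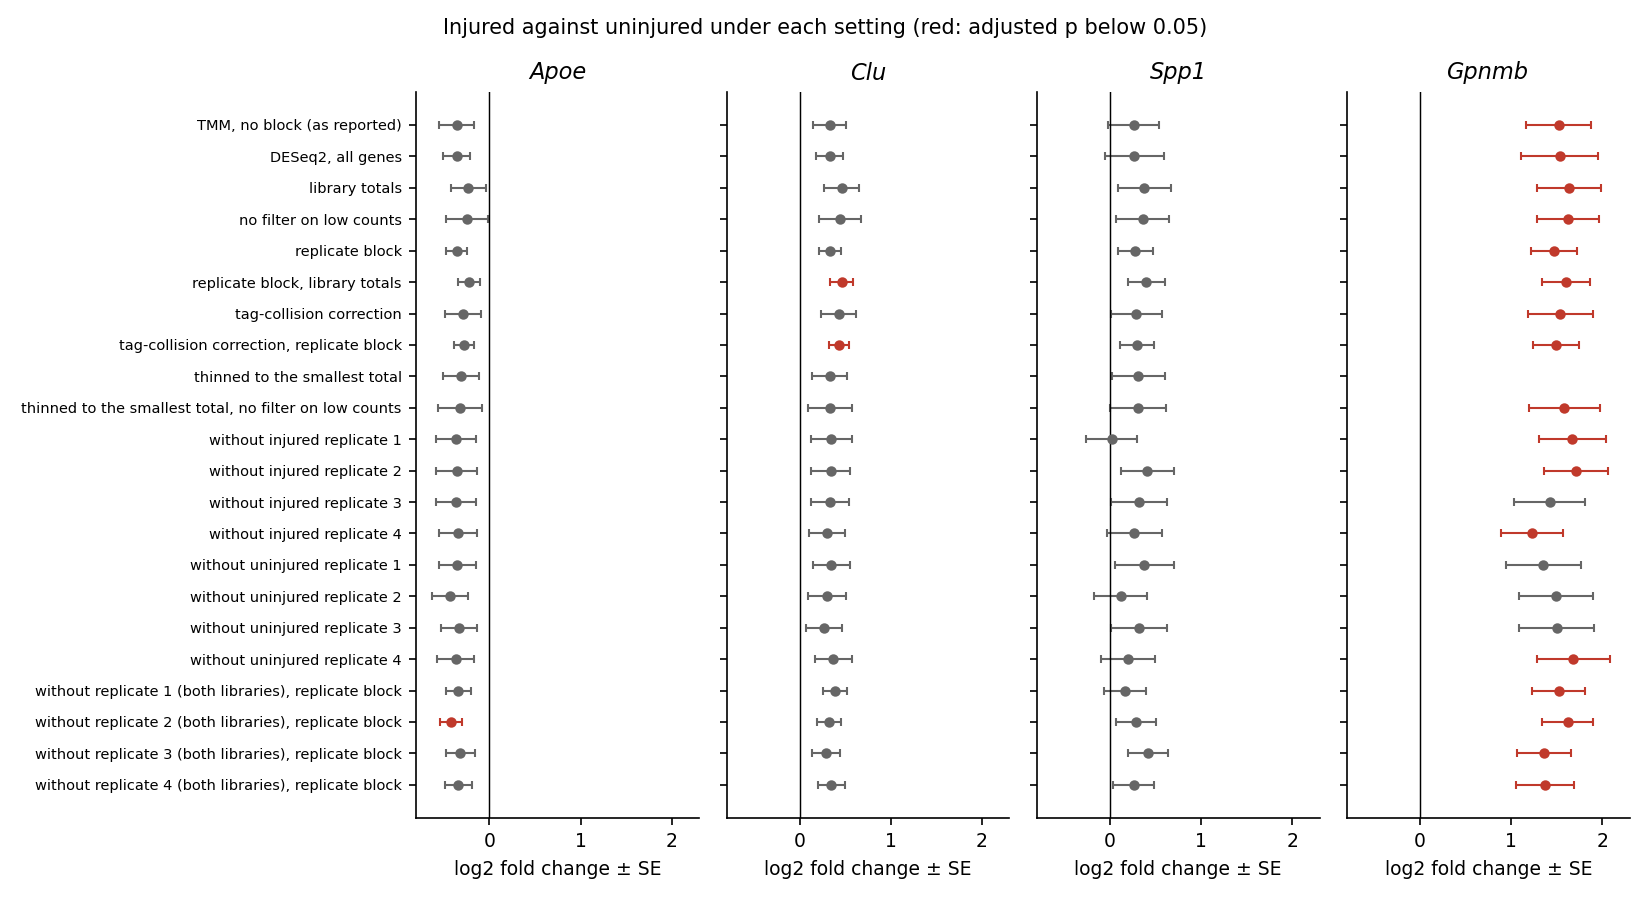
Log2 fold change ± SE of each gene (one panel each) under every setting, red where the adjusted p was below 0.05. Gpnmb runs from 1.23 to 1.71 and is red in 16 of the 20 alternatives that tested it. Apoe stays between -0.43 and -0.22 (red in 1 of 21), Clu between 0.27 and 0.46 (2 of 21) and Spp1 between 0.02 and 0.42 (0 of 21).

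Across the series, library totals ran from 195113 to 320199 UMIs in injured and from 112264 to 221177 UMIs in uninjured libraries. Identifiers come without gene names, so markers of the tissue and its cell types were not analysed here, and neither were the receptors, lysosomal genes and microglial genes that work with these 4.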

How the data were processed

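Bulk RNA of 8 libraries, 4 injured and 4 uninjured, was analysed from the authors' table of raw UMI counts per Ensembl gene, deposited without normalization. Per the labels' protocols, cords were flash frozen and libraries followed CEL-Seq2 on an Illumina HiSeq1500. The submitters' processing notes name the build Rnor_6.0, HTSeq 0.6.0 and HISAT2 2.0.4. No source used here states the annotation release, the tag length or strand use. Groups came from the group label, replicate numbers and table columns from the codes in titles.

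In R 4.3.3, edgeR 4.0.16 kept 3073 genes (filterByExpr, minimum count 10, minimum total 15), which held 89.0% of counts, scaled libraries by TMM and tested injured against uninjured (glmQLFit with legacy=FALSE, glmQLFTest, Benjamini-Hochberg over all tested genes). All 4 genes passed the filter. The SE of a log2 fold change is its size over the root of F. CPM divides UMIs by the library total over all genes, and r uses log2 CPM with a prior count of 2. DESeq2 1.42.0 and other settings were alternatives. The correction for tag collisions turns a count n into -N ln(1 - n/N), with N the number of different 6-base tags.

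Same-numbered libraries deviated together (correlations 0.389, 0.297, 0.342 and 0.423 over the tested genes, highest other pair 0.241), but no label says that they are pairs. The main fit left the numbers out, so its intervals ignore this sharing. The numbers entered only the fits with the block and the ratios within numbers. Libraries of a group differed beyond counting noise in all 12 comparisons (chi-square per degree of freedom 2.55 to 7.27). The 4 genes, the lists and the motifs were chosen with earlier results of these data known. The genes most like each were picked by the highest r, at most 2 identifiers per direction. The identifiers in the table matched 0 entries of RefSeq GRCr8, so the 4 names rest on the identifiers given for them, and lists of related genes and cell markers were not analysed here.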

Additional observations from a re-analysis of the deposited data

How the results depend on the processing

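Apoe was below 0 and Clu and Spp1 above 0 under all 21 alternatives, and Gpnmb above 0 under the 20 that tested it; thinned to the smallest total with the filter, Gpnmb was not tested. Added after seeing the data, thinning without the filter gave it a log2 fold change of 1.58 (edgeR adjusted p = 0.00867). Leaving out 1 library, or 1 number with the block, gave 1.23 to 1.71 for Gpnmb, -0.43 to -0.32 for Apoe, 0.27 to 0.39 for Clu and 0.02 to 0.42 for Spp1. Apoe passed once, without number 2 and with the block (-0.42, edgeR adjusted p = 0.0297, range over alternatives 0.0297 to 0.748). Clu passed with the replicate block and library totals (0.46) or the collision correction (0.43), with adjusted p over alternatives from 0.0154 to 0.73. The replicate block alone changed no call of the 4 genes. Against 70 higher and 6 lower genes in all, counts were 208 and 140 with the replicate block, 284 and 65 with the block and library totals, 209 and 122 with the block and the collision correction, 225 and 13 without the filter, 46 and 3 thinned, 105 and 11 thinned without the filter, 105 and 3 with library totals, and 83 and 19 by DESeq2, run on all genes. Without 1 library they ran from 38 to 115 and from 0 to 15 (0 without injured library 1 by edgeR, 139 lower at an unadjusted p under 0.05), and with the block, leaving out numbers 1 to 4 in turn, they were 95, 158, 144 and 318 higher and 47, 91, 63 and 202 lower. The causes were not tested. Gpnmb had 7 to 12 UMIs per uninjured library, the lowest counts of the 4 genes.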
